A study of Mus musculus with 15 samples.

Results

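Iron and copper handling was followed through 10 genes, taken by name: Fth1 and Ftl1 (ferritin), Trf (transferrin), Tfrc (transferrin receptor), Slc11a2 (divalent metal transporter), Slc40a1 (ferroportin), Cp (ceruloplasmin), Hmox1 (heme oxygenase) and Aco1 and Ireb2 (iron regulatory proteins). Each of the 10 symbols belonged to a single gene ID among the 55471 rows of the count table. All 10 passed the filter on low counts, more than 1 CPM (the count of a gene relative to the scaled total of its library) in at least 3 of 15 libraries, as did 16171 genes in all.

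Whole hippocampi of 3-month-old female mice were sequenced in 15 libraries, 3 for each of 5 groups, to ask how mutant App and human APOE4 act together on the hippocampal transcriptome. Batch 1 held WT mice (wild-type, C57BL/6JInv), APP-TKI mice (AppNL-G-F/NL-G-F, homozygous for knock-in mutations in a humanized Aβ region of the App gene) and double-mutant DM mice (AppNL-G-F/NL-G-F together with Apoe4+/wt). Batch 2 held its own WT mice and ApoE4 mice (ApoE4+/wt, with 1 allele of human APOE4 knocked in). The batches were collected and sequenced apart, so groups were compared within a batch. DM mice came from mating APP-TKI and APOE4 mice and are heterozygous for APOE4, and all mutant alleles are knock-ins at the mouse loci, so that no other promoter drives them. The labels number the libraries of a group and do not say more of how they were taken, so p-values measure the spread between these libraries.

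Libraries held 32754717 to 44630808 counts. The hippocampal markers Prox1, Neurod6, C1ql2, Fibcd1, Wfs1, Cpne4 and Zbtb20 were detected in every library, with summed levels of 1051 to 1279 CPM. Choroid plexus markers summed to 1707 CPM in WT replicate 3 of batch 2 and to 2030 CPM in ApoE4 replicate 1, against 31.2 to 112 CPM in the other 13 libraries. Long noncoding genes took 2.65% to 2.88% of the counts in 4 of the 9 libraries of batch 1 (replicate 1 of WT and of DM, and replicates 1 and 2 of APP-TKI), against 2.16% to 2.32% in the other 5. In bulk tissue, fewer cells of a type and less RNA per cell cannot be told apart.

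Iron reaches brain cells bound to transferrin, which the transferrin receptor takes up, or through metal transporters; ferritin stores it, and ferroportin exports it together with ceruloplasmin, a copper-carrying ferroxidase that oxidises the exported iron. Iron regulatory proteins, the products of Aco1 and Ireb2, bind RNA hairpins called iron-responsive elements when iron is low: at the 5′ end of a transcript they block translation, and at the 3′ end they protect the RNA from decay. Part of this control therefore acts on protein synthesis, which RNA counts do not measure.

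The hairpin letters were searched in the annotated untranslated regions (UTRs) of the coding transcripts, because they are the letters that the products of Aco1 and Ireb2 bind. The motif was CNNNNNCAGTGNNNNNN on the transcript strand: a bulged C, 5 bases, the loop CAGTGN and 5 bases that pair with the first 5, G with T allowed. It was found in 4 of the 10 genes, in the 5′ UTR of Fth1, Ftl1 and Slc40a1 and at 4 places in the 3′ UTR of Tfrc. Over all genes the motif stood in the 5′ UTR of 28 of 20815 (0.135%) and in the 3′ UTR of 127 of 20897 (0.608%). The sequences below are from the GENCODE M21 annotation of GRCm38, 5′ to 3′ on the transcript strand, with the loop in capitals.
Fth1, chr19:9982732-9982760, plus strand: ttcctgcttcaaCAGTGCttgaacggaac
Ftl1, chr7:45459779-45459807, minus strand: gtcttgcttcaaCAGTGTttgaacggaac
Slc40a1, chr1:45925465-45925493, minus strand: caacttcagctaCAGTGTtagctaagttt
Tfrc site 1, chr16:32631219-32631247, plus strand: aattatcggaagCAGTGCcttccataatt
Tfrc site 2, chr16:32631598-32631626, plus strand: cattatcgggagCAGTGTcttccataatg
Tfrc site 3, chr16:32631663-32631691, plus strand: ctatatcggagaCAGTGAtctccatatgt
Tfrc site 4, chr16:32631710-32631738, plus strand: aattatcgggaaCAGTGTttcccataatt
The sites of the ferritin pair were identical at 26 of 29 bases. The 4 Tfrc sites, which lie within 520 bases, shared 16 of 29 positions. For Trf, Slc11a2, Cp, Hmox1, Aco1 and Ireb2, these letters were not found in the annotated UTRs, and nothing follows from that about the binding of a regulatory protein. All 4 genes with the motif were measured here as RNA, and their values follow by role.

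Per kilobase of annotated exons, the levels of the 10 genes spanned from 448 CPM for Fth1 to 0.804 CPM for Slc40a1, as means of the 15 libraries. Fth1 stood above 99.8% of the genes tested and Ftl1, at 103 CPM per kilobase, above 98.2%. Trf followed at 86.5 and Tfrc at 20.7 CPM per kilobase. Ireb2, Slc11a2 and Aco1 stood next at 8.99, 8.39 and 7.07, Hmox1 at 2.7 and Cp at 1.31. The order put storage and transferrin-bound uptake at the top and the export pair Cp and Slc40a1 at the bottom.

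Some neighbours in that order were not set apart by the spread over libraries. Ftl1 spanned 93.1 to 115 CPM per kilobase and Trf 56.3 to 112. Ireb2 spanned 8.55 to 9.54, Slc11a2 7.55 to 9.66 and Aco1 6.58 to 7.94. The ranges of Hmox1 (2.22 to 3.06) and Cp (0.767 to 2.53), and of Cp and Slc40a1 (0.671 to 1.1501), also overlapped. The length used is the union of all annotated exons, so that a gene that uses a short transcript has a higher level than this scale gives.

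**Figure D1:**
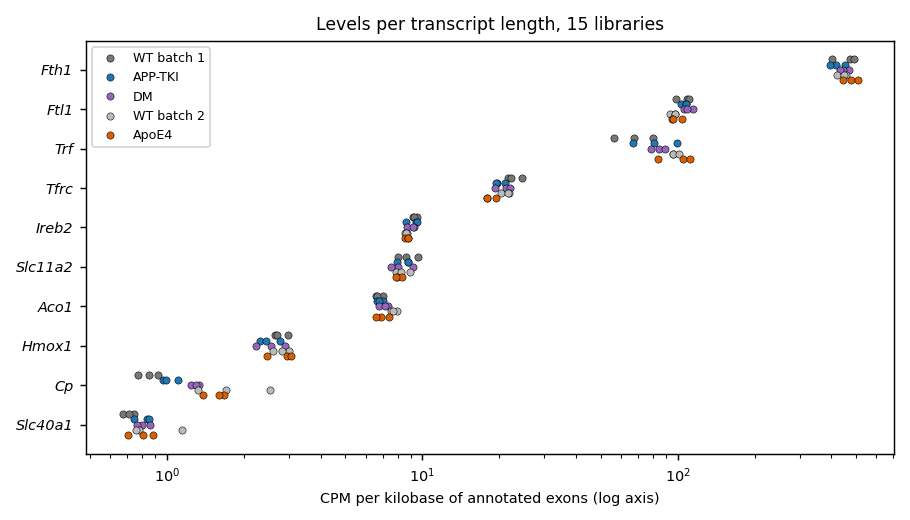
Level of each of the 10 genes in each of the 15 libraries, in CPM per kilobase of annotated exons (log axis), with 1 point a library coloured by group. Fth1 is at the top at a mean of 448 and Slc40a1 at the bottom at 0.804, and the points of Cp are spread from 0.767 to 2.53.

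Ferritin, the shell that stores iron, is built from heavy chains (Fth1, ENSMUSG00000024661, chr19:9980598-9985098, plus strand), which oxidise iron, and light chains (Ftl1, ENSMUSG00000050708, chr7:45457944-45459884, minus strand). Fth1 stood at 1391, 1640 and 1697 CPM in WT libraries of batch 1, at 1571, 1446 and 1375 in APP-TKI and at 1621, 1536 and 1501 in DM libraries. In batch 2 it stood at 1582, 1455 and 1561 CPM in WT and at 1661, 1539 and 1758 in ApoE4 libraries. The groups overlapped in every comparison, with log2 fold changes from -0.11 (APP-TKI against WT, 95% interval -0.28 to 0.07) to 0.11 (ApoE4 against WT, -0.04 to 0.26). Without the 4 libraries high in long noncoding RNA, which leaves APP-TKI replicate 3 alone in its group, Fth1 was at -0.28 in APP-TKI against WT mice (adjusted p = 0.01025, edgeR).

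Ftl1 varied little too. Its level was 132, 146 and 148 CPM in WT of batch 1, 138, 145 and 144 in APP-TKI and 154, 142 and 145 in DM libraries. WT libraries of batch 2 had 125, 131 and 131 CPM and ApoE4 libraries 140, 127 and 129. All groups overlapped, and the largest log2 fold change was 0.05 (DM against APP-TKI, -0.08 to 0.18). The ratio of Fth1 to Ftl1 CPM, which compares heavy with light chains between groups, was 11.05 ± 0.482 in WT of batch 1, 10.3 ± 0.957 in APP-TKI, 10.5 ± 0.234 in DM, 11.9 ± 0.789 in WT of batch 2 and 12.5 ± 0.957 in ApoE4 mice (mean ± SD, n = 3), with overlap in each comparison. Ferritin has related copies in the genome. Over all libraries Ftl1-ps1, annotated as protein-coding, had 140 counts and the processed pseudogene Fth-ps2 128, against 77220 for Ftl1. The part of such copies in the ferritin counts was not tested, so these counts carry some uncertainty. Ftl1 also shares 355 exon bases with Gm10252 on the opposite strand, and whether the counting used strand is not given.

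Transferrin (Trf, ENSMUSG00000032554, chr9:103204001-103230444, minus strand) carries iron outside cells, and in the brain oligodendrocytes, the myelin-forming cells, are its main source. Trf stood at 187, 265 and 223 CPM in WT libraries of batch 1, at 330, 223 and 269 in APP-TKI and at 279, 296 and 262 in DM libraries. WT libraries of batch 2 had 319, 317 and 337 CPM and ApoE4 libraries 350, 278 and 372. DM libraries overlapped those of WT only at 262 and 265 CPM, and the log2 fold change was 0.31 (SE 0.14, adjusted p = 0.9999, edgeR quasi-likelihood test). Against WT it was 0.28 in APP-TKI mice (SE 0.14, -0.02 to 0.59) and 0.04 in ApoE4 mice (SE 0.10).

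Oligodendrocyte markers moved with Trf. The 13 markers, among them Mbp, Mag and Mog, summed to 4113, 6086 and 5072 CPM in WT of batch 1, to 6624, 4394 and 5264 in APP-TKI and to 5292, 6216 and 5258 in DM libraries, with no marker at 0. WT replicate 1, lowest in Trf within batch 1, was also lowest in these markers, and APP-TKI replicate 1 was highest in both. In DM mice all 13 markers had a higher level than in WT mice, none at an unadjusted p under 0.05, with a median log2 fold change of 0.13 against 0.01 over all genes. Without WT replicate 1, or without the 4 libraries high in long noncoding RNA, the log2 fold change of Trf between DM and WT mice was 0.19. Pearson's r of Trf with these markers was 0.898 within batch 1 and 0.936 within batch 2. With choroid plexus markers it was 0.941 within batch 1 and 0.402 within batch 2, and with ependymal markers 0.734 and 0.569. Choroid plexus markers were higher in APP-TKI than in WT mice for 9 of 9, with a median log2 fold change of 0.43, and ependymal markers in DM than in WT mice for 8 of 8, with a median of 1.10. Of all genes 55.5% were higher in APP-TKI than in WT mice and 54.9% in DM than in WT mice. The part of RNA from any of these cells in the level of Trf was not tested. Exons of Trf share 2108 bases with Gm20425 on the same strand, for which the count table has no row.

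The transferrin receptor (Tfrc, ENSMUSG00000022797, chr16:32608920-32632794, plus strand) takes up transferrin-bound iron. The 4 sites of the motif shown above stand in 1 of its 2 complete coding transcripts. Tfrc stood at 133, 152 and 137 CPM in WT libraries of batch 1, at 121, 121 and 130 in APP-TKI and at 131, 136 and 119 in DM libraries. In batch 2, WT libraries had 135, 126 and 134 CPM and ApoE4 libraries 110, 120 and 111. Both single mutants lay wholly below the WT libraries of their batch, whereas DM libraries overlapped them. The log2 fold change was -0.21 in ApoE4 mice (SE 0.05, adjusted p = 0.7607), a level 13.6% lower, and -0.18 in APP-TKI mice (SE 0.07, adjusted p = 0.9998; both edgeR quasi-likelihood). In DM mice it was -0.13 against WT (-0.28 to 0.02) and 0.05 against APP-TKI (-0.10 to 0.21).

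Leaving out each library in turn, or both libraries high in choroid plexus markers, kept the log2 fold change of Tfrc in ApoE4 mice between -0.25 and -0.18. Over the 15 libraries, centred on the batch, Pearson's r of Tfrc with the 12 marker lists of cell types lay between -0.23 and 0.15, but the batches differed. Within batch 2 it was -0.867 with neuron, 0.770 with mural cell, -0.629 with ependymal and 0.495 with endothelial markers (6 libraries), against 0.268, -0.166, -0.00854 and -0.178 within batch 1 (9 libraries). Mural cell markers, from pericytes and smooth muscle of vessels, summed to 144 to 173 CPM in ApoE4 and 193 to 194 CPM in WT libraries of batch 2, without overlap, and 9 of 10 were lower, 3 at an unadjusted p under 0.05. Of all genes 2.76% were lower at an unadjusted p under 0.05 in this comparison. The part of mural cells in the level of Tfrc was not tested. The ratio of Tfrc to Fth1 CPM, an uptake gene over a storage gene, was 0.0691 ± 0.00779 in ApoE4 and 0.0859 ± 0.000389 in WT mice of batch 2 (SD, n = 3). The ratios did not overlap (0.0630 to 0.0779 against 0.0856 to 0.0863), with an exact two-sided permutation p of 0.1, the smallest that 3 against 3 libraries allow. In batch 1 the ratios overlapped in all 3 comparisons.

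Slc11a2 (ENSMUSG00000023030, chr15:100387898-100425072, minus strand) encodes the divalent metal transporter that moves iron across membranes, out of endosomes in particular. Its level was 61.4, 54.7 and 51.0 CPM in WT of batch 1, 56.0, 55.9 and 50.7 in APP-TKI and 58.4, 51.0 and 48.0 in DM libraries. WT of batch 2 had 56.7, 50.0 and 52.3 CPM and ApoE4 libraries 50.8, 52.8 and 50.0. All groups overlapped, and log2 fold changes lay between -0.09 and -0.04. Slc11a2 shares 402 exon bases with Gm5475 on the opposite strand, which had 216 counts in all against 29689.

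Ferroportin (Slc40a1, ENSMUSG00000025993, chr1:45908068-45926523, minus strand) is the iron exporter. Its level was 6.70, 6.04 and 6.40 CPM in WT of batch 1, 7.50, 6.71 and 7.64 in APP-TKI and 7.18, 6.87 and 7.70 in DM libraries. Both mutant groups lay above all WT libraries of the batch, by a narrow margin at 6.70 against 6.71 CPM. The log2 fold changes of 0.19 (APP-TKI, -0.05 to 0.43) and 0.18 (DM, -0.06 to 0.42) did not pass the test, at unadjusted p of 0.108 and 0.1193 (edgeR). In batch 2, WT libraries had 10.4, 7.01 and 6.84 CPM and ApoE4 libraries 7.96, 7.29 and 6.33, which overlapped.

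Ceruloplasmin (Cp, ENSMUSG00000003617, chr3:19957054-20009145, plus strand) had the widest spread of the 10 genes. Its group means were up to 2.19 times apart, which is WT of batch 2 over WT of batch 1. Within a batch the widest difference was 1.53 times, DM over WT of batch 1. Ceruloplasmin carries most of the copper of plasma, and in brain it is known from astrocytes, as a membrane-anchored form, and from the choroid plexus and meninges. Cp stood at 7.34, 8.17 and 8.81 CPM in WT libraries of batch 1, at 9.26, 9.47 and 10.6 in APP-TKI and at 12.8, 11.9 and 12.5 in DM libraries. The 3 groups of batch 1 did not overlap, with WT lowest and DM highest. WT libraries of batch 2 had 12.7, 16.3 and 24.2 CPM and ApoE4 libraries 16.0, 15.3 and 13.3, which overlapped.

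Means of Cp were 8.11 ± 0.734 CPM in WT, 9.78 ± 0.728 in APP-TKI and 12.4 ± 0.463 in DM mice of batch 1 (SD, n = 3). DM mice had a level 1.53 times that of WT, a log2 fold change of 0.61 (SE 0.10, 95% interval 0.39 to 0.84, adjusted p = 0.1463), 6th of 16171 genes by p and short of the adjusted threshold of 0.1. Against APP-TKI the log2 fold change in DM mice was 0.34 (0.12 to 0.56, adjusted p = 0.9874), and APP-TKI mice differed from WT by 0.27 (0.04 to 0.50, adjusted p = 0.9998). ApoE4 mice stood at 14.9 ± 1.41 against 17.8 ± 5.90 CPM in WT of batch 2, a log2 fold change of -0.26 (-0.76 to 0.25). All are from edgeR's quasi-likelihood test. The comparisons of batch 1 share libraries and are not independent of each other.

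Whether Cp was called in DM against WT mice depended on the test. With DESeq2 its adjusted p was 0.00219, at a log2 fold change of 0.59. By the robust likelihood ratio test in edgeR, which the study used, it was 0.0003184, at 0.61. The labels do not pair libraries. In the counts each DM library correlated best with the WT library of its own number, which does not establish pairs. With the number as a block in the quasi-likelihood fit the adjusted p was 0.07134. With only both groups in the fit it was 0.09746, and with all 15 libraries in 1 fit 0.8117. Without APP-TKI replicate 2, a library of neither group, it was 0.08909, and without any other single library of batch 1 it was 0.112 to 0.6494, at log2 fold changes of 0.54 to 0.68. Without the 4 libraries high in long noncoding RNA it was 0.05344, with a log2 fold change of 0.52. In ApoE4 against WT mice the log2 fold change of Cp was 0.03 without WT replicate 3 of batch 2 and -0.03 without both libraries high in choroid plexus markers.

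**Figure D2:**
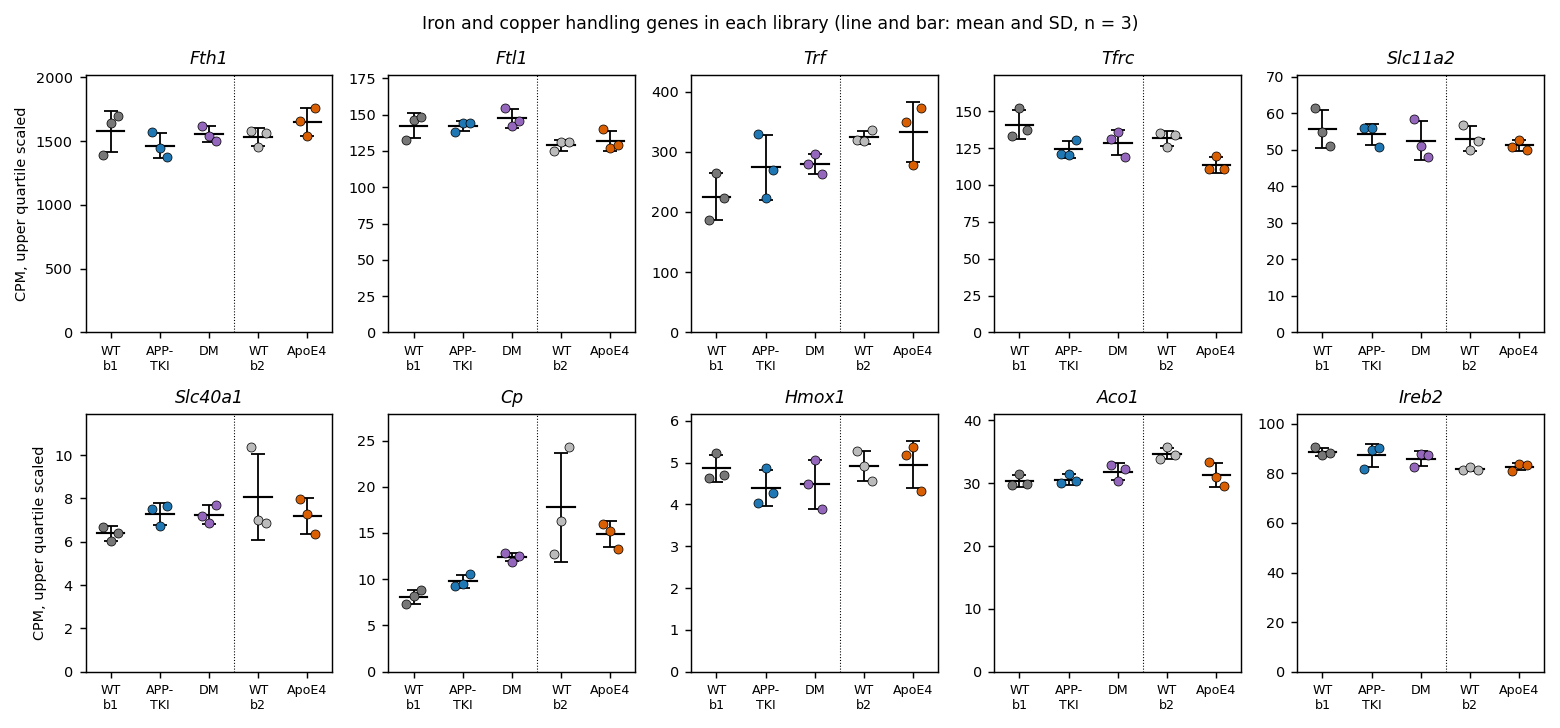
Level of the 10 genes in each library (points, CPM after upper quartile scaling, axes from 0), with the mean and SD of 3 libraries for each group; WT b1 and WT b2 are the WT mice of batches 1 and 2, and the dotted line divides the batches. In batch 1, Cp is lowest in WT, higher in APP-TKI (9.26 to 10.6 CPM) and highest in DM libraries (11.9 to 12.8), without overlap, and Tfrc is lower in ApoE4 than in WT libraries.

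Within each batch, fibroblast markers moved with Cp. Cells of the meninges and vessel walls express the 10 markers of the list, among them Col1a1, Dcn and Slc6a13. Their summed level was 80.7, 94.0 and 79.5 CPM in WT of batch 1, 83.4, 70.8 and 114 in APP-TKI and 124, 110 and 123 in DM libraries, with no marker at 0. In batch 2 it was 76.6, 111 and 132 CPM in WT and 86.9, 94.3 and 65.1 in ApoE4 libraries. DM libraries overlapped those of APP-TKI but not those of WT.

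In DM against WT mice all 9 fibroblast markers that passed the filter were higher, 4 at an unadjusted p under 0.05. Their median log2 fold change was 0.45. Of all genes 54.9% were higher, 3.69% at an unadjusted p under 0.05. In ApoE4 against WT mice all 9 were lower, with a median of -0.33 and none at an unadjusted p under 0.05. There 45.9% of all genes were higher. The level of Cp and the mean of the markers, both log2 CPM centred on the batch, had a Pearson's r of 0.954 and a Spearman's rho of 0.939 over 15 libraries, 0.953 within batch 1 and 0.977 within batch 2. The points share a tissue, a dissection and a library each. Other lists moved with the groups of batch 1 too. Against WT, DM mice had higher ependymal markers for 8 of 8, 7 at an unadjusted p under 0.05, with a median log2 fold change of 1.10 and summed levels of 26.6 to 35.6 against 13.3 to 18.6 CPM. Their r with Cp was 0.726 within batch 1 and 0.338 within batch 2. Mural cell markers were higher for 9 of 10, 5 at an unadjusted p under 0.05, with an r of 0.789 and 0.733. Endothelial markers were higher in DM (101 to 132 CPM summed) than in WT (81.1 to 89.4) and APP-TKI libraries (75.2 to 88.1), all 13 of them in both comparisons (7 and 9 at an unadjusted p under 0.05), and had an r of 0.727 with Cp within batch 1 and of -0.0759 within batch 2. Of all genes 50.4% were higher in DM than in APP-TKI mice, 2.83% at an unadjusted p under 0.05. Astrocyte markers had an r with Cp of 0.524 within batch 1 and 0.813 within batch 2. For the 2 border macrophage markers that passed the filter it was 0.682 and 0.791. The part of RNA from fibroblasts or any of these cells in the level of Cp was not tested. Choroid plexus markers, which are high in both libraries named above, had an r of 0.555 with Cp: the ApoE4 library with 2030 CPM of those markers had 16.0 CPM of Cp, and the WT library with 1707 CPM had 24.2.

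**Figure D3:**
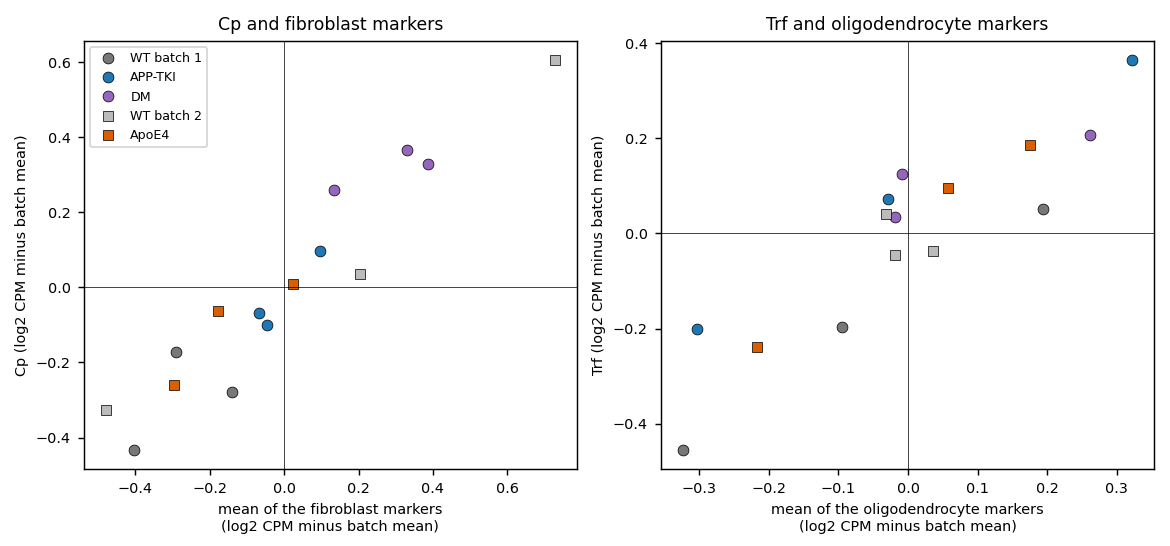
Left, Cp against the mean of the fibroblast markers; right, Trf against the mean of the oligodendrocyte markers, both as log2 CPM minus the batch mean, with 1 point a library (circles batch 1, squares batch 2). In both panels the points rise from lower left to upper right, with Pearson's r of 0.954 for Cp and 0.904 for Trf over 15 libraries.

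Cp and Slc40a1, the export pair, differed in how they varied. The ratio of Cp to Slc40a1 CPM was 1.71 ± 0.0849 in DM, 1.34 ± 0.0961 in APP-TKI and 1.27 ± 0.156 in WT mice of batch 1 (SD, n = 3). DM libraries lay above those of both other groups (exact two-sided permutation p = 0.1, the smallest possible), whereas APP-TKI and WT libraries overlapped (exact permutation p = 0.5). Over the 15 libraries the batch-centred levels of Cp and Slc40a1 had a Pearson's r of -0.002388. Cp shares 108 exon bases with Hps3 on the opposite strand, a gene with 11584 counts in all against 7141 for Cp.

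Heme oxygenase 1 (Hmox1, ENSMUSG00000005413, chr8:75093621-75100589, plus strand) breaks down heme and frees its iron. With 136 to 232 counts a library it had the fewest counts of the 10. It stood at 4.63, 5.24 and 4.71 CPM in WT of batch 1, at 4.04, 4.86 and 4.28 in APP-TKI and at 4.48, 5.07 and 3.89 in DM libraries. In batch 2 it stood at 5.28, 4.93 and 4.55 CPM in WT and at 5.19, 5.36 and 4.32 in ApoE4 libraries. All groups overlapped, and the 95% intervals of its log2 fold changes reached from -0.46 to 0.34, with SEs of 0.13 to 0.14.

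Aco1 (ENSMUSG00000028405, chr4:40143081-40198338, plus strand) encodes iron regulatory protein 1, which is an aconitase when it holds an iron-sulfur cluster. Its level was 29.7, 31.5 and 29.9 CPM in WT of batch 1, 30.0, 31.5 and 30.3 in APP-TKI and 32.97, 30.4 and 32.2 in DM libraries. WT libraries of batch 2 had 33.9, 35.7 and 34.5 CPM and ApoE4 libraries 33.3, 31.0 and 29.6. ApoE4 libraries lay below those of WT, with a log2 fold change of -0.15 (SE 0.06, adjusted p = 0.7607, edgeR), and the groups of batch 1 overlapped. Without both libraries high in choroid plexus markers it was -0.20. Endothelial markers, with an r of 0.649 with Aco1, summed to 166 to 205 CPM in WT and 142 to 187 in ApoE4 libraries. Mural cell markers, lower in ApoE4 libraries as given for Tfrc, had an r of 0.810 with Aco1 within batch 2. The part of either was not tested.

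Ireb2 (ENSMUSG00000032293, chr9:54863789-54912530, plus strand) encodes iron regulatory protein 2, which is degraded when iron is plentiful. Its level was even, at 90.5, 87.3 and 88.3 CPM in WT of batch 1, 81.8, 89.6 and 90.4 in APP-TKI and 82.5, 87.8 and 87.5 in DM libraries. In batch 2 WT libraries had 81.2, 82.4 and 81.5 CPM and ApoE4 libraries 81.1, 83.6 and 83.4. Its groups overlapped in all comparisons, and the 95% intervals reached from -0.17 to 0.11.

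Counted over the 10 genes, none was called in DM against WT mice at an adjusted p under 0.1 (edgeR quasi-likelihood), where 0.0124% of the 16171 genes were called. DESeq2 and the robust likelihood ratio test in edgeR called 1, Cp. At an unadjusted p under 0.05, 2 of the 10 were higher (Cp and Trf) and none lower, against 4.55% of all genes, 3.69% higher and 0.866% lower. Of all genes under 0.05, 81.0% were higher, or 70.9% with TMM scaling and 68.4% with DESeq2. The libraries of both groups did not overlap for 2 genes, Cp and Slc40a1, both higher, against 10.4% of all genes, 7.29% higher and 3.14% lower.

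In APP-TKI against WT mice none of the 10 was called by edgeR's quasi-likelihood test (background 0.00618%), by its robust likelihood ratio test or by DESeq2. At an unadjusted p under 0.05, Cp was higher and Tfrc lower, 2 of 10 against 3.56% of all genes, 2.19% higher and 1.37% lower. Cp and Slc40a1 lay wholly above WT libraries and Tfrc wholly below, against 8.27% of all genes without overlap, 4.71% above and 3.56% below. Of the 10 genes 4 had a log2 fold change above 0, as did 55.5% of all genes, whereas in DM against WT mice 5 did (54.9% of all). In DM against APP-TKI mice none was called by any of the 3 tests (background 0%, with 0 of 16171 genes by the quasi-likelihood test). Cp alone had an unadjusted p under 0.05 (3.78% of all genes, 2.83% higher and 0.946% lower) and libraries without overlap (7.93%, with 5.03% higher and 2.9% lower). Above 0 lay 7 of the 10 log2 fold changes and 50.4% of those of all genes.

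ApoE4 against WT mice gave no called gene among the 10 by any of the 3 tests (background 0%, with 0 of 16171 by the quasi-likelihood test). Tfrc and Aco1, both lower, had an unadjusted p under 0.05 and libraries without overlap, 2 of 10 in each count against 5.99% of all genes for p (3.23% higher, 2.76% lower) and 12.2% for overlap (5.39% higher, 6.79% lower). Of the 10, 5 had a log2 fold change above 0, beside 45.9% of all genes. The median log2 fold change of the 10 genes was 0.01 in DM against WT, -0.01 in APP-TKI against WT, 0.04 in DM against APP-TKI and -0.02 in ApoE4 against WT mice, beside 0.01, 0.01, 0.00 and -0.01 over all genes.

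**Figure D4:**
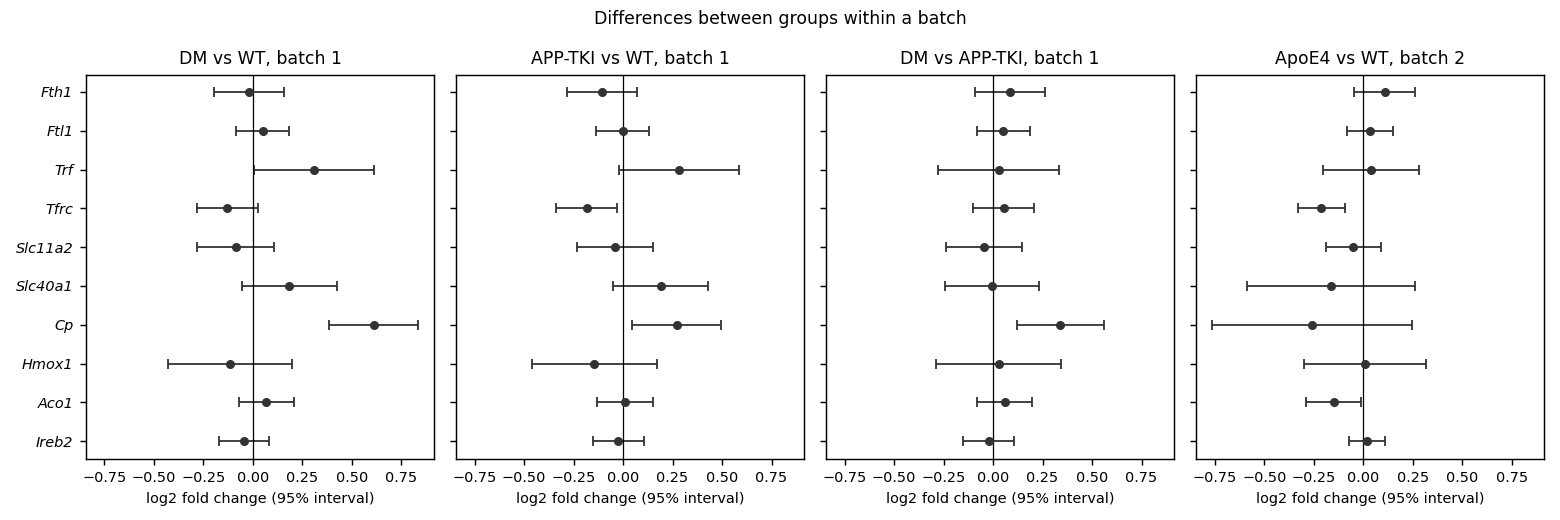
Log2 fold change of each of the 10 genes with its 95% interval in the 4 comparisons within a batch (edgeR quasi-likelihood fit). Cp is to the right of 0 in all 3 comparisons of batch 1, at 0.61 in DM against WT mice, and Tfrc is to the left at -0.21 in ApoE4 mice.

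The next question was whether APOE4 acts alike with and without mutant App. For this the log2 fold change of DM over APP-TKI mice was compared with that of ApoE4 over WT mice. This used 1 fit of all 15 libraries, as a difference of differences in which a shift common to a batch cancels. Each of these fold changes came from a different batch. A batch difference that touches only some libraries, such as one of dissection, does not cancel. An effect of APOE4 that depends on mutant App cannot be told apart from such a difference. None of the 10 genes was called by the quasi-likelihood test (background 0%, with 0 of 16171), by the robust likelihood ratio test or by DESeq2. At an unadjusted p under 0.05, 3 of the 10 had a positive difference, against 6.85% of all genes in either direction, 4.06% in this one and 2.79% in the other. Positive differences, called or not, were found for 7 of the 10 and for 52.6% of all genes. Of all genes under 0.05, 59.3% had a positive difference, or 53.5% with TMM scaling and 48.0% with DESeq2.

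Tfrc had a difference of 0.26 on the log2 scale (SE 0.09, adjusted p = 0.6919), from 0.05 in mice with mutant App and -0.21 in those without. Cp had a difference of 0.60 (SE 0.24, adjusted p = 0.7194), from 0.34 in mice with mutant App and -0.26 in those without. Without WT replicate 3 of batch 2 the difference of Cp was 0.31, and without both libraries high in choroid plexus markers it was 0.37. All 9 fibroblast markers had a positive difference, with a median of 0.54, and so did all 13 endothelial markers, with a median of 0.68. Aco1 had a difference of 0.21 (SE 0.08, adjusted p = 0.7194), from 0.06 and -0.15. All p are from edgeR, and these differences reuse the libraries of the comparisons above.

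Among themselves the 10 genes were only loosely related over libraries. Of the 45 pairs, batch-centred levels gave the highest Pearson's r for Tfrc and Hmox1 (0.509) and the lowest for Trf and Ireb2 (-0.641), over 15 libraries that each share depth and dissection between the genes of a pair. Other high values were those of Cp with Aco1 (0.498) and of the ferritin chains with each other (0.443). Relations to cell type markers, each the mean of a list, were closer for some of the genes. They were not for Tfrc (-0.23 to 0.15 with the lists) or for Ireb2, whose strongest was -0.558 with oligodendrocyte markers. Besides Cp with fibroblast and Trf with oligodendrocyte markers, Cp had an r of 0.749 with mural cell markers, Ftl1 of 0.73 with astrocyte markers, Aco1 of 0.67 with red blood cell markers and Slc11a2 of -0.67 with neuron markers. Slc40a1 had its highest value with microglia markers, 0.584.

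**Figure D5:**
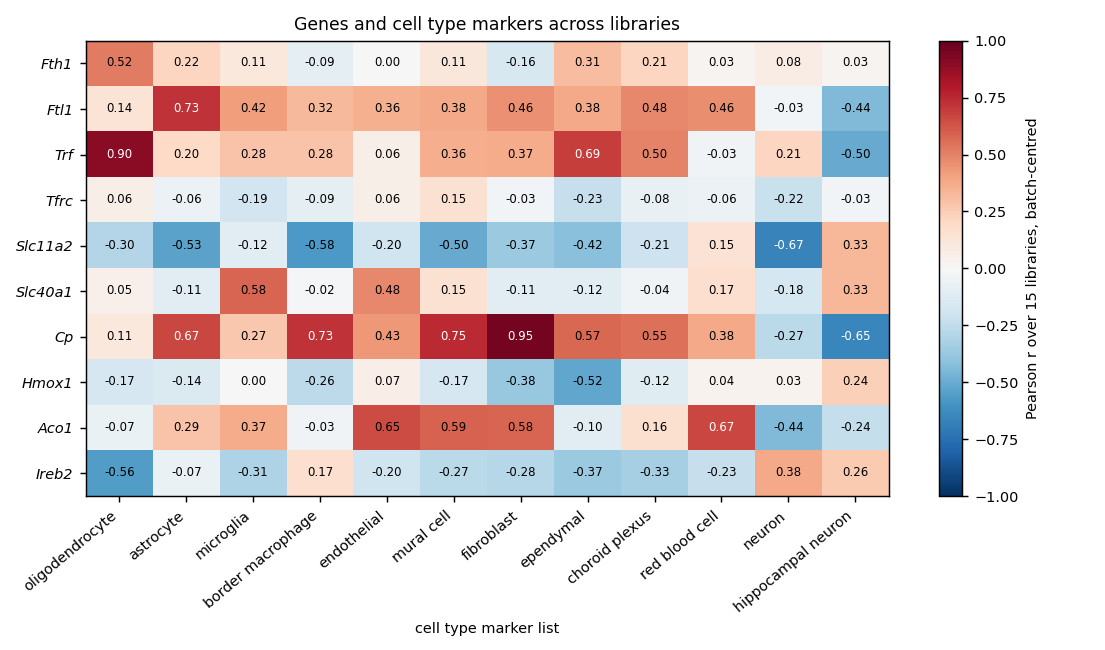
Pearson's r over 15 libraries between each of the 10 genes (rows) and the mean of each marker list (columns), both as log2 CPM centred on the batch, with red for positive and blue for negative values. The darkest cells are Cp with fibroblast markers and Trf with oligodendrocyte markers, and the row of Tfrc is pale, though within batch 2 alone its r was -0.867 with neuron and 0.770 with mural cell markers.

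The single genes most like each of the 10 over the 15 libraries, by Pearson's r of batch-centred log2 CPM among all tested genes, differed from gene to gene. For Trf they were Bcas1 (0.953), Prr18 (0.921) and Mog (0.909), of which Mog is a myelin gene of the marker list. Among those closest to Cp were Tmem241 (0.931) and the transporter Slc6a20a (0.920). Slc11a2 was closest to Ubp1 (0.948), Guf1 (0.946) and Chid1 (0.940). The ferritin chains were closest to Arhgap23 (0.880), Fam102a (0.877) and Mafk (0.848) for Fth1 and to Aldh1l1 (0.865), an astrocyte enzyme, Trim12a (0.862) and Smoc1 (0.848) for Ftl1.

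Among those closest to Tfrc were Iqcb1 (0.883) and Pdk3 (0.841), and Slc40a1 was closest to Dhodh (0.872), Tubg1 (0.835) and Sstr3 (0.829). The values of Hmox1 were lower, with 4930520O04Rik (0.733) and Rad17 (0.730) among its closest genes. Among those closest to Ireb2 were P4ha1 (0.875) and 8030462N17Rik (0.873), and Aco1 was closest to Trp53rka (0.865), Prcp (0.861) and Pde5a (0.831). These values are among the highest of 16171 genes each and are given as a description.

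Around the 10 genes, 73 other genes of iron, heme and copper metabolism were followed, of which 64 passed the filter on low counts. The 9 that did not were Scara5, Hpx, Hp, Lcn2, Ftmt, Hamp, Hamp2, Hjv and Steap4. Among them were the hepcidin genes Hamp, whose hormone closes ferroportin, and Hamp2. None of the 64 was called in any of the 5 comparisons by the quasi-likelihood test. The robust likelihood ratio test in edgeR called 1 in DM against WT mice (Bmp6) and 1 in the difference of differences (Iscu), and DESeq2 called none. At an unadjusted p under 0.05 there were 3 of 64 higher and none lower in DM against WT mice, where 3.69% of all genes were higher and 0.866% lower. APP-TKI against WT mice had none higher and 1 lower, beside 2.19% and 1.37% of all genes. DM against APP-TKI mice had 6 higher and none lower, beside 2.83% and 0.946%, and ApoE4 against WT mice none higher and 1 lower, beside 3.23% and 2.76%. The difference of differences had 7 higher and 1 lower, beside 4.06% and 2.79%. In DM mice 42 of the 64 stood above their level in WT mice and 42 above that in APP-TKI mice, beside 54.9% and 50.4% of all genes. By list, the genes above WT in DM mice were 4 of 9 for iron uptake and reduction, 3 of 5 for storage and ferritin turnover, 3 of 5 for systemic iron regulation, 9 of 14 for heme, 11 of 14 for mitochondrial iron and iron-sulfur clusters, 9 of 13 for copper and 3 of 4 for metallothioneins. In ApoE4 mice the genes above WT were, in the same order, 6 of 9, 3 of 5, 4 of 5, 3 of 14, 7 of 14, 4 of 13 and 3 of 4, beside 45.9% of all genes, and none of the 14 for heme had an unadjusted p under 0.05.

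Bmp6, the ligand that drives hepcidin synthesis in liver, had the smallest p of the 64 in DM against WT mice. It stood at 4.37, 3.79 and 3.68 CPM in WT, at 4.78, 3.93 and 5.28 in APP-TKI and at 6.17, 5.13 and 6.24 in DM libraries. DM libraries lay above those of WT, with a log2 fold change of 0.57 (SE 0.15, adjusted p = 0.5414, edgeR). Alas1, the first enzyme of heme synthesis, stood at 47.3, 47.2 and 49.3 CPM in WT and at 52.9, 53.1 and 54.0 in DM libraries, also without overlap, a log2 fold change of 0.15. Bdh2 overlapped between DM and WT at a log2 fold change of 0.69. On the lower side, the smallest p were those of the iron reductase Cybrd1 (-0.24), the metal importer Slc39a14 (-0.13) and the ferredoxin reductase Fdxr (-0.14). None was under 0.05. DM libraries lay wholly below those of WT for Cybrd1 and Slc39a14 and overlapped them for Fdxr. Of all genes 7.29% lay wholly above and 3.14% wholly below in this comparison. The genes named here and below were chosen by a small p, and the number of the 64 without overlap is not given.

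In APP-TKI against WT mice Lyrm4, a subunit of the complex that builds iron-sulfur clusters, was the only gene of the 64 under an unadjusted p of 0.05. It stood at 15.7, 17.4 and 18.3 CPM in APP-TKI against 19.9, 19.9 and 21.5 in WT libraries, wholly below them, a log2 fold change of -0.25 (SE 0.09, adjusted p = 0.9998, edgeR). Next on that side were Sco2 (-0.45), a copper chaperone of cytochrome oxidase, and Mt3 (-0.19). On the higher side stood the metal importer Slc39a8 (0.43), Abcb8 (0.14) and the copper exporter Atp7b (0.30). APP-TKI libraries lay wholly below those of WT for Sco2 and wholly above for Slc39a8, with overlap for Mt3, Abcb8 and Atp7b. Sco2 was near the filter of 1 CPM, at 1.11, 1.14 and 1.31 CPM in APP-TKI against 1.46, 2.10 and 1.33 in WT libraries. Its margin was narrow, at 1.31 against 1.33 CPM. Of all genes 4.71% lay wholly above and 3.56% wholly below in this comparison.

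In DM against APP-TKI mice the smallest p of the 64 were those of Mt3 and Iscu. Metallothionein 3 (Mt3), a metal-binding protein of brain that takes up zinc and copper, stood at 340, 266 and 313 CPM in DM against 255, 265 and 201 in APP-TKI libraries and 288, 285 and 253 in WT. DM and APP-TKI libraries did not overlap, by a margin of 266 against 265 CPM, at a log2 fold change of 0.35 (SE 0.11, adjusted p = 0.9874). Iscu, on which iron-sulfur clusters are assembled, stood at 62.2, 65.1 and 70.9 CPM in DM against 59.6, 55.2 and 56.9 in APP-TKI libraries, a log2 fold change of 0.21 (SE 0.07, adjusted p = 0.9874; both edgeR). Bdh2 had 0.90 (SE 0.31, adjusted p = 0.9874, edgeR), at 3.81, 1.52 and 2.21 CPM in DM against 1.49, 1.23 and 1.33 in APP-TKI libraries. These levels are near the filter of 1 CPM. The libraries did not overlap, by a narrow margin at 1.52 against 1.49 CPM, and DM replicate 1 was highest. On the lower side were Slc39a14 (-0.14), Fdxr (-0.23) and Atp7b (-0.34), none under an unadjusted p of 0.05. DM libraries lay wholly below those of APP-TKI for Slc39a14 and Fdxr and overlapped them for Atp7b. Of all genes 5.03% lay wholly above and 2.9% wholly below in this comparison.

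In ApoE4 against WT mice Iscu was lower, at 56.9, 52.5 and 49.8 CPM against 56.4, 58.8 and 63.9, with overlap and a log2 fold change of -0.17 (SE 0.07, adjusted p = 0.7607, edgeR). Fech (-0.08) and Cisd1 (-0.09), an enzyme of heme synthesis and a mitochondrial iron-sulfur protein, followed. ApoE4 libraries overlapped those of WT for Fech and lay wholly below them for Cisd1, by a narrow margin at 62.0 against 62.1 CPM. Of all genes 5.39% lay wholly above and 6.79% wholly below in this comparison. Cybrd1 (0.28), Slc39a14 (0.08) and Cpox (0.06) were next on the higher side. Iscu was first in the difference of differences too, at 0.38 (SE 0.10, adjusted p = 0.5992), followed by Cisd1 (0.25) and Lyrm4 (0.33), all 3 from the list of mitochondrial iron and iron-sulfur clusters. Of the 14 genes of that list, 10 had a positive difference, 3 of them at an unadjusted p under 0.05, beside 52.6% and 4.06% of all genes, with a median of 0.05 against 0.01 over all genes. On the other side stood Slc39a14 (-0.22), Fdxr (-0.31) and Atp7b (-0.48).

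Across batches, only levels were set side by side, since WT mice of both batches differ in collection and sequencing as well. WT of batch 2 had 2.19 times the mean CPM of WT of batch 1 for Cp, 1.44 times for Trf and 1.26 times for Slc40a1. The other 7 genes lay between 0.905 (Ftl1) and 1.14 times (Aco1). Oligodendrocyte markers summed to 7421 to 7794 CPM in WT of batch 2, against 4113 to 6086 in WT of batch 1. Fibroblast markers summed to 76.6 to 132 CPM in WT of batch 2 and to 79.5 to 94.0 in WT of batch 1. Batch and these levels cannot be told apart.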

How the data were processed

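The deposited table holds raw read counts per gene for 15 libraries, which the authors made from directional poly(A) paired-end reads. They trimmed with Trimmomatic 0.39, aligned with STAR 2.7.1a to the mouse genome plus human APOE RNA, and counted with HTSeq 0.11.2, then used R 4.0.2 and edgeR. Whether counting used strand is not stated in the sources read here.

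Here, 55230 of 55471 gene IDs were matched to GENCODE M21, another release on GRCm38 than the authors' M24. Counts were analysed in R 4.3.3 with edgeR 4.0.16 (limma 3.58.1) and drawn with Python 3.11.15 and matplotlib 3.10.9. The 16171 genes above 1 CPM in 3 or more of the 15 libraries were kept and scaled by the upper quartile, as in the study. The quasi-likelihood test of edgeR was fitted to the 9 libraries of batch 1, to the 6 of batch 2 and, for the difference of differences, to all 15. A gene was called when its p, adjusted over the whole table by Benjamini-Hochberg, was under 0.1. Standard errors are the log2 fold change over the square root of the F statistic. The study used the robust likelihood ratio test in edgeR, in whose place the quasi-likelihood test stood here. Alternatives were that robust test, DESeq2 1.42.0, other scalings, filters, thresholds and sets of libraries, a replicate block, and the omission of single libraries.

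The 10 genes, the marker lists and the lists of other iron and copper genes were chosen with earlier results of these data known. Other genes were named by rule: in each comparison up to 3 higher and 3 lower genes of the lists with the smallest p, and for each of the 10 the 3 genes with the highest correlation, of which some are not reported here. Correlations used log2 CPM (prior count 1) after subtraction of each batch mean. Deviations from group means of same-numbered DM and WT libraries had correlations of 0.4462, 0.1945 and 0.3005 over genes. Each was the highest for its DM library, though for replicate 2 another number reached 0.1078. With 3 libraries a group this match does not establish pairs. It comes from the counts, not from the labels. No replicate pair differed by less than sampling noise (chi-square per degree of freedom 4.96 to 27.0). The fits were tested on simulated data.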

Additional observations from a re-analysis of the deposited data

How the results depend on the processing

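In the main quasi-likelihood fit none of the 10 genes was called in any comparison. Many settings moved that count in DM against WT mice, and few did elsewhere. In DM against WT mice it was 1 (Cp) by the robust likelihood ratio test in edgeR, with DESeq2, with only the 2 groups compared, with the replicate block and without the 4 libraries high in long noncoding RNA (an alternative added after seeing the data). It was 2 with no filter on low counts (Cp and Trf) and 0 to 1 with each library left out. In the difference of differences it was 1 (Cp) with no filter. Leaving out the 4 libraries gave 1 in APP-TKI against WT mice, Fth1 at a log2 fold change of -0.28 (adjusted p = 0.01025, edgeR). That setting leaves a single APP-TKI library, which is assumed to vary like the other groups. Of the 64 other genes, 1 was called with the robust test in DM against WT (Bmp6) and 1 in the difference of differences (Iscu). In DM against APP-TKI mice 4 were called with no filter (Bdh2, Mt1, Mt2 and Mt3) and 2 without the 4 libraries (Mt1 and Mt3), as were 2 in APP-TKI against WT. Why these settings moved the calls was not tested.

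The replicate block added no call among the 10 genes in the other comparisons. There, same-numbered deviations correlated at -0.3199 to 0.2287 (APP-TKI and WT), -0.1173 to 0.2253 (DM and APP-TKI) and -0.2729 to 0.06589 (ApoE4 and WT). Not every library of these comparisons correlated best with its own number. Over all genes the block took calls from 1 to 9, from 0 to 1 and from 0 to 0, and in DM against WT mice from 2 to 11. Calls over all genes differed more between tests: in DM against WT mice 136 with the robust likelihood ratio test and 50 with DESeq2, against 2. In APP-TKI against WT mice they were 50 and 25 against 1, in DM against APP-TKI mice 53 and 18 against 0, in ApoE4 against WT mice 125 and 48 against 0, and in the difference of differences 121 and 26 against 0.

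Directions that turned were all of uncalled values. The number of the 10 genes higher in ApoE4 than in WT mice, 5, was 3 without both libraries high in choroid plexus markers (added after seeing the data), and 3 to 7 with each library left out. Without both of those libraries Ftl1 was at -0.000100 and Hmox1 at -0.0785 (log2). In APP-TKI against WT mice Aco1 (0.01) was at -0.00259 with DESeq2, -0.00109 with TMM scaling, -0.0107 with no filter, -0.000647 with filterByExpr and -0.0182 without the 4 libraries high in long noncoding RNA, and Ireb2 was at 0.0423 without them. Without these 4 libraries Ftl1 was at -0.0353 in DM against WT and -0.00283 in DM against APP-TKI mice, and Tfrc at -0.0320 in the latter. In the difference of differences Slc11a2 (0.00) was at -0.00890 with the robust likelihood ratio test, -0.00665 with DESeq2, -0.00174 with TMM, -0.0111 with no filter and -0.00135 with the replicate block.

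With each library left out, signs turned within these ranges of log2 fold change. In DM against WT mice they were -0.104 to 0.0348 for Fth1 and -0.000258 to 0.0806 for Ftl1. In APP-TKI against WT mice they were -0.0515 to 0.0294 for Ftl1, -0.0998 to 0.0353 for Slc11a2, -0.0491 to 0.0216 for Ireb2 and -0.0113 to 0.0362 for Aco1. In DM against APP-TKI mice they were -0.101 to 0.182 for Trf, -0.0624 to 0.0302 for Slc40a1, -0.131 to 0.0130 for Slc11a2, -0.0680 to 0.120 for Hmox1 and -0.0673 to 0.00603 for Ireb2. In ApoE4 against WT mice they were -0.449 to 0.0329 for Cp, -0.0111 to 0.0595 for Ftl1, -0.0487 to 0.154 for Trf, -0.270 to 0.0544 for Slc40a1, -0.0919 to 0.000835 for Slc11a2 and -0.0507 to 0.0997 for Hmox1. In the difference of differences they were -0.0720 to 0.0305 for Fth1, -0.0168 to 0.0624 for Ftl1, -0.140 to 0.143 for Trf, -0.0613 to 0.263 for Slc40a1, -0.0804 to 0.0640 for Slc11a2 and -0.0775 to 0.1104 for Hmox1.

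The precision is limited by 3 libraries a group, and for Hmox1 (136 to 232 counts a library) and Slc40a1 (196 to 388) also by depth.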
